A study of Mus musculus with 2 samples.

Results

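Lymphatic endothelial cells line the vessels that drain tissue fluid and immune cells from the heart, and 366 of the 22084 cells kept in both libraries belonged to this population. Members were chosen by measured transcripts. A cell was a member when it had at least 2 of the lymphatic genes Prox1, Mmrn1, Reln and Flt4, at least 1 of the endothelial genes Pecam1, Cdh5 and Egfl7, under 100 type I and III collagen UMIs (Col1a1, Col1a2, Col3a1) and under 30 C1q UMIs (C1qa, C1qb, C1qc) per 10000. UMIs are unique molecular identifiers, which count captured transcripts. The cells came from mice of the genotype p16-2A-CreER;R26-mTmG, in which Cre recombinase follows the p16 promoter and tamoxifen switches a membrane reporter from tdTomato to GFP. All mice had a myocardial infarction and took tamoxifen by mouth on day 5 after it, and cells other than cardiomyocytes were taken from the infarct zone on day 7. They were sorted into a GFPhi and a GFPlo fraction, which other label fields call GFP-positive and GFP-negative, and each fraction gave 1 library. There was no uninjured heart and no replicate, so every interval below is a 95% interval for counting error only, and no test between the fractions was possible. GFP marks p16 promoter activity around the time of tamoxifen and not at harvest, p16 and p19Arf share the 3′ end that was counted, and the mGFP feature of the count table may also count unrecombined reporter transcript.

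Lymphatic endothelium is specified by the transcription factor Prox1 and grows in response to VEGF-C, which binds the receptor Flt4 (VEGFR3). Its capillaries take up fluid and cells through loose junctions and attract dendritic cells and lymphocytes with the chemokine Ccl21, and its collecting vessels carry valves. After myocardial infarction cardiac lymphatics sprout, and they clear oedema and leukocytes from the injured wall. Among the genes used to choose members, Prox1 lies at chr1:190118035-190170714, Mmrn1, which encodes a secreted multimerin, at chr6:60924976-60989378, Reln, which encodes the matrix protein reelin, at chr5:21884454-22344702 and Flt4 at chr11:49609263-49652739 (GENCODE vM21, mm10).

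The GFPhi library held 97 members and the GFPlo library 269. Their median depth was 7973 UMIs in GFPhi (range 1548 to 30876) and 5202 in GFPlo (528 to 27990), and the members summed to 1015951 and 1893002 UMIs. In GFPhi 66 members had all 4 lymphatic genes, 22 had 3 and 9 had 2. In GFPlo these numbers were 140, 83 and 46. Just outside the rule, 66 cells of GFPhi and 150 of GFPlo passed everything else but had only 1 lymphatic gene. Ccl21a stood at 4.81 and 298 CPM (100 times the UMIs per 10000 UMIs summed over the cells) in those cells, against 1417 and 5245 CPM in members with 2 lymphatic genes and 25463 and 11618 CPM in members with 4. A further 2 cells of GFPhi and 18 of GFPlo were kept out by the collagen limit, and 11 and 0 by the C1q limit.

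Most members also had lymphatic markers that the rule did not use. Ccl21a was seen in 86 of 97 members of GFPhi (88.7%) and 233 of 269 of GFPlo (86.6%), and Lyve1, a hyaluronan receptor of lymphatic capillaries, in 78 (80.4%) and 192 (71.4%). Pdpn, which encodes podoplanin, was seen in 70 (72.2%) and 170 (63.2%). In blood endothelial cells, with medians of 5853 and 4084 UMIs, these shares were 2.52% and 3.13% for Ccl21a, 3.77% and 2.83% for Lyve1 and 5.03% and 3.28% for Pdpn. Those cells were chosen for having none of the lymphatic genes of the rule, so the gap is no test of the label. Among members with only 2 of those genes, Ccl21a was seen in 44.4% in GFPhi and 54.3% in GFPlo. Cells differed widely in Ccl21a: the lowest, median and highest counts were 0, 178 and 860 UMIs in GFPhi and 0, 53 and 348 in GFPlo. The 94 barcodes that both libraries shared included 1 member of GFPhi and 2 of GFPlo.

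Against blood endothelial cells of the same library, members carried a broad lymphatic programme. The comparison cells had none of the 4 lymphatic genes, at least 2 of the 3 endothelial genes and the same collagen and C1q limits, which gave 159 cells in GFPhi (median 5853 UMIs) and 671 in GFPlo (4084), of which 81 and 438 had Npr3, a receptor of the endocardium. Of 3545 genes compared, 264 (7.45%) were over 2-fold higher in members in both libraries and 236 (6.66%) over 2-fold lower. Of the 16 genes on a list of lymphatic identity genes outside the rule, 14 were higher in both and none lower. Their median ratios were 13.2 in GFPhi and 16.6 in GFPlo, beside 1.07 and 1.06 over all genes compared. The members were selected on genes that vary with these, so the counts describe the population and are no test of it.

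Ccl21a, which encodes the chemokine that draws CCR7-bearing cells into lymphatics, led the list. It stood at 21651 CPM in members of GFPhi and 10570 CPM in those of GFPlo, against 3.09 and 14.2 CPM in blood endothelial cells, which is 7015-fold (2739–25748) and 743-fold (553–1023) higher. The gene has near-identical copies, so the authors' counting decides which copy a read goes to. Here the feature at chr4:42772860-42773993 took 21996 and 20009 UMIs, and the other 5 features with a Ccl21 name took between 0 and 3 UMIs each in either library.

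Lyve1 was at 1330 and 885 CPM in members against 7.72 and 10.0 CPM in blood endothelial cells. Tbx1, a transcription factor needed for lymphatic growth, was at 150 and 128 CPM with 0 and 1 UMIs in the comparison cells, at least 64.6-fold higher in GFPhi when 0 is read as up to 3 counts. Il7, a survival cytokine for lymphocytes, was at 92.5 and 54.9 CPM against 0.772 and 1.29, and Ackr2, a scavenger receptor for inflammatory chemokines, at 121 and 81.9 CPM against 0.772 and 2.91. Outside the fixed lists, the leading genes included Scn3a, a sodium channel subunit, with 248 and 415 UMIs in members and none in blood endothelial cells of either library, and Apba2, an adaptor protein, with 80 and 151 UMIs and again none. Tc2n, at 220 and 151 CPM, was 95.2-fold and 51.7-fold higher. Ptx3, which encodes the soluble pattern recognition protein pentraxin 3, was at 98.4 and 197 CPM with 0 and 13 UMIs in blood endothelial cells. Dtx1, a Notch pathway ubiquitin ligase, was at 112 and 54.9 CPM with 0 and 2.

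**Figure D1:**
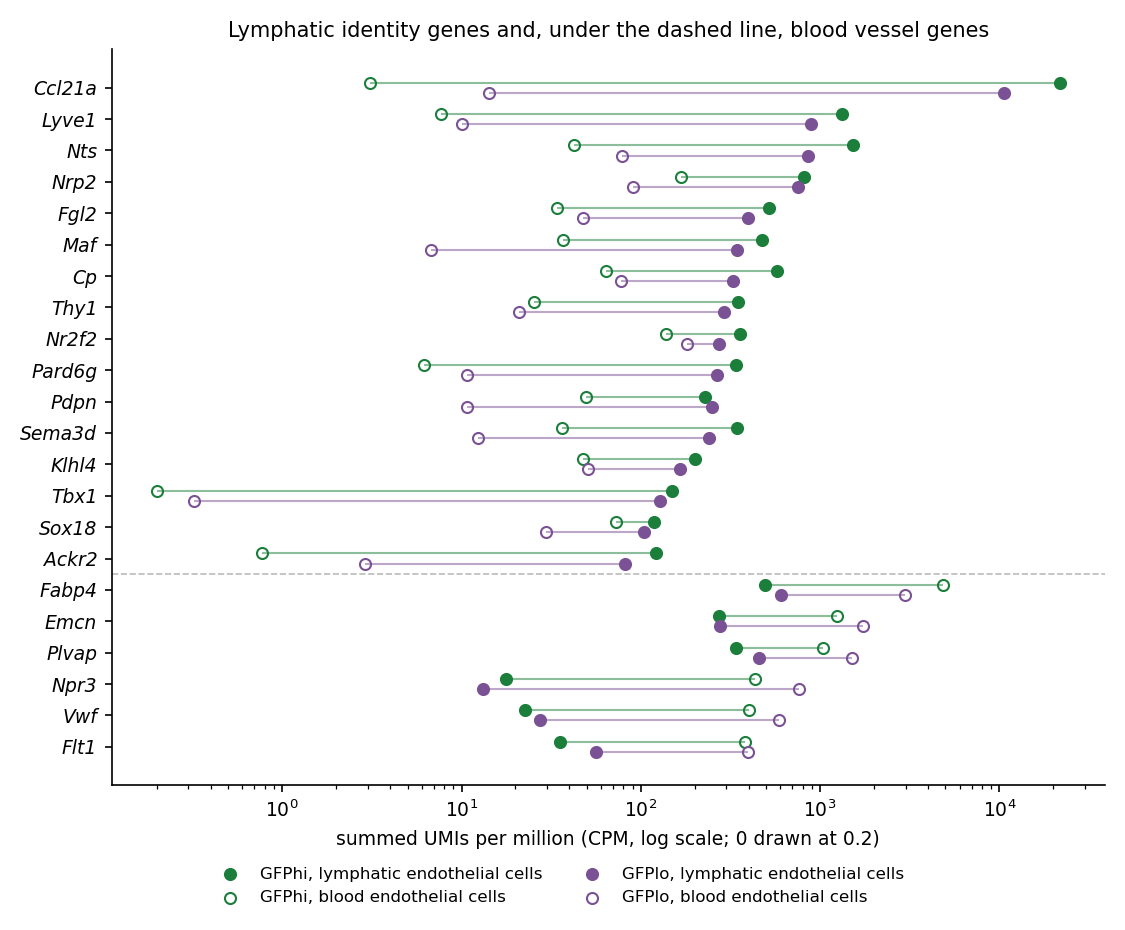
Levels of the 16 lymphatic identity genes and, under the dashed line, 6 blood vessel genes in lymphatic endothelial cells (filled) and blood endothelial cells (open) of each library, as CPM on a log scale. Filled points lie to the right of open ones for every identity gene in both libraries and to the left for the 6 blood vessel genes.

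Receptors and signalling parts of the VEGF-C axis followed the lymphatic side. Of 10 genes compared, 6 were over 2-fold higher than in blood endothelial cells in both libraries and 2 were lower. Over all 3545 genes compared 7.45% were higher and 6.66% lower. The 6 were Flt4, Kdr, Nrp2, Pgf, Itga9 and Piezo2. Flt4 was used by the rule, and the comparison cells were chosen for lacking it. Kdr (VEGFR2) was at 365 and 336 CPM in members, 2.24-fold and 3.97-fold higher, and the co-receptor Nrp2 at 811 and 757 CPM, 4.87-fold and 8.36-fold higher. The lower genes were Nrp1, the co-receptor of blood vessels, at 12.8 and 26.9 CPM against 594 and 855 CPM, and Flt1 (VEGFR1) at 35.4 and 56.0 CPM against 380 and 396 CPM. The ligand genes had few UMIs in the members themselves, 1 and 4 UMIs of Vegfc and 1 and 14 of Vegfd.

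Blood endothelial markers were low in members against the comparison cells, of which 81 of 159 in GFPhi and 438 of 671 in GFPlo had Npr3. Single-gene folds against blood endothelial cells are over all of those cells, with Npr3 or without. Of 11 blood endothelial markers compared, 9 were over 2-fold lower in both libraries, beside 6.66% of all 3545 genes compared. The other 2 were the water channel Aqp1 and Notch1. Vwf, von Willebrand factor, was 17.8-fold and 21.6-fold lower, and Emcn, endomucin, 4.53-fold and 6.25-fold lower. The 12 genes furthest below blood endothelial cells were Nrg1, Nrp1, Chrm2, Sprr2a2, Sost, Smoc1, Cyp1b1, Mal, Npr3, Bace2, Tmem108 and Igf2. Npr3 was 24.6-fold and 57.9-fold lower. Nrg1, a growth factor made by the endocardium, stood at 21.7 and 77.1 CPM in members and was 66.4-fold and 29.2-fold lower. With only the 78 and 233 comparison cells that lacked Npr3, 188 genes were higher and 173 lower.

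Other roles split the same way. The counts here stand beside 7.45% higher and 6.66% lower over all 3545 genes compared. All 6 genes compared from the list of capillary and uptake genes were over 2-fold higher in members, among them the scavenger receptor Stab1 (404 and 412 CPM, 2.25-fold and 2.13-fold) and the mechanosensitive channel Piezo2 (176 and 160 CPM, 2.93-fold and 4.98-fold). Of 13 leukocyte trafficking genes, Ccl21a, Il7 and the sphingosine-1-phosphate exporter Spns2 were higher, and 6 were lower, Cxcl12, Icam1, Vcam1, Sele, Selp and Mcam. The adhesion molecule Icam1 was at 37.4 and 37.5 CPM, 4.25-fold and 4.16-fold below blood endothelial cells, and Vcam1 at 3.94 and 42.8 CPM, 77.2-fold and 9.01-fold below. Of 7 lipid handling genes compared, 5 were lower and none higher, with the fatty acid carrier Fabp4 at 491 and 601 CPM (9.85-fold and 4.97-fold lower) and Fabp5 at 153 and 230 CPM (13.0-fold and 13.3-fold lower). Among junction genes, Cldn5, the tight junction claudin of endothelium, was 8.29-fold and 14.8-fold higher and Jup, plakoglobin, 3.47-fold and 4.45-fold higher, while Esam was 11.99-fold and 6.201-fold lower. The adrenomedullin receptor parts Calcrl (356 and 251 CPM) and Ramp2 (1376 and 1227 CPM) were within 2-fold of blood endothelial cells.

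The reporter transcript stood apart in a few of these cells. The GFPhi library held 7 cells with 18 or more mGFP UMIs, and all 7 were lymphatic endothelial cells, with 18, 18, 19, 28, 29, 36 and 38 UMIs. The next highest count among the 10125 GFPhi cells was 8, in 1 further member and 2 other cells. In GFPlo the highest member had 4 mGFP UMIs and the highest other cell 5. These 7 cells were singled out after their values were seen.

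**Figure D2:**
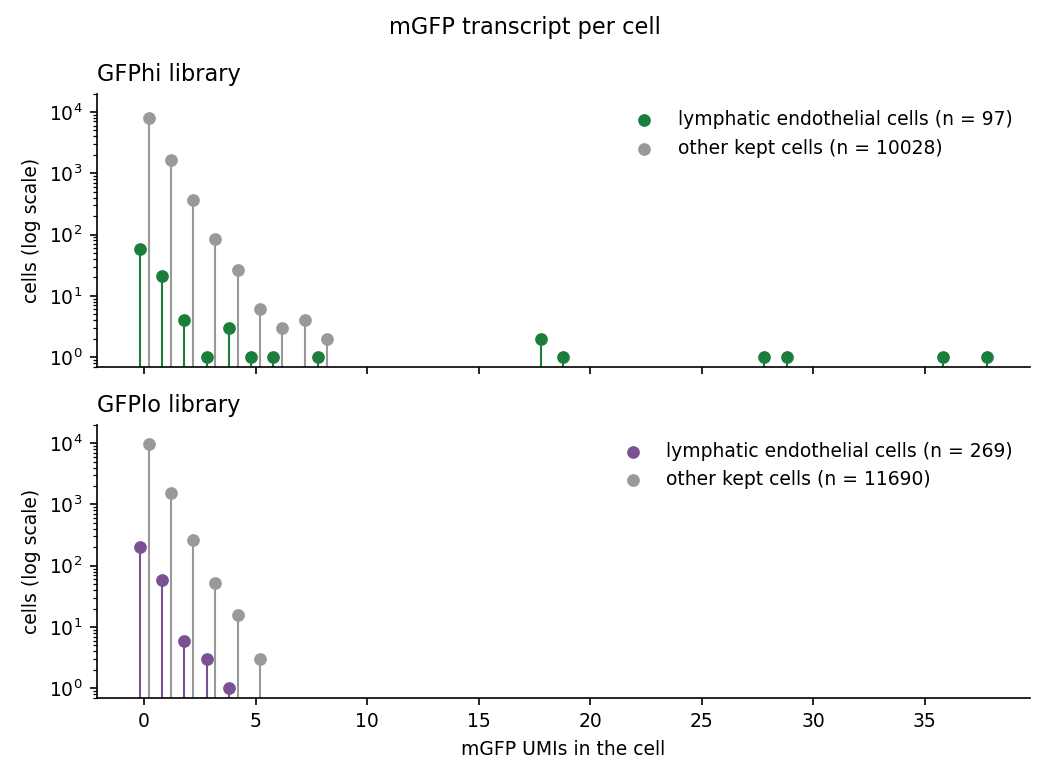
Number of cells (log scale) at each count of mGFP UMIs per cell, for lymphatic endothelial cells (coloured) and all other kept cells (grey) of the GFPhi library (top) and the GFPlo library (bottom). The 7 cells from 18 to 38 UMIs in GFPhi are all lymphatic endothelial cells, and no other cell in either library exceeds 8.

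Summed over members, mGFP came to 249 UMIs in GFPhi, or 245 CPM, and to 83 UMIs in GFPlo, or 43.8 CPM, a ratio of 5.59 (4.34–7.26). The 7 cells held 186 of the 249 (74.7%). Without them the members of GFPhi were at 65.4 CPM and the ratio was 1.49 (1.06–2.10), beside 1.40 (1.33–1.48) in all other kept cells and 1.13 (0.830–1.53) in blood endothelial cells. Leaving out the 5 members of GFPhi with the most mGFP and, because of ties, 10 of GFPlo gave 3.01. Any mGFP UMI was found in 39 of 97 members of GFPhi (40.2%) and 68 of 269 of GFPlo (25.3%), against 27.0% and 16.99% of blood endothelial cells. Without the 7 cells the GFPhi share was 32 of 90 (35.6%). Members of GFPhi were deeper, and thinned to 1000 UMIs per cell, which left out 0 and 5 members, the shares were 13.4% (7.33–21.8) and 3.03% (1.32–5.88), and those of blood endothelial cells 4.52% and 5.55%. The 7 cells were among those thinned, and the thinned share was not taken without them. Members made up 0.958% of kept GFPhi cells and held 8.10% of the library's mGFP UMIs; in GFPlo they held 3.49%. CreERT2 transcript was not seen in members of either library, which allows up to 3 UMIs in each.

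Transcript of the p16 locus itself, Cdkn2a (chr4:89274471-89294653), gave no difference between the sorted fractions that was detectable at this depth. It had 11 UMIs in 10 members of GFPhi (10.8 CPM, 5.40–19.4) and 21 UMIs in 12 members of GFPlo (11.1 CPM, 6.87–16.96), a ratio of 0.976 (0.425–2.12). Both levels were above those of all other kept cells, by 4.80-fold (2.36–8.77) in GFPhi and 2.41-fold (1.48–3.73) in GFPlo. Blood endothelial cells (medians of 5853 and 4084 UMIs) had 1 and 7 Cdkn2a UMIs, in 0.629% and 0.745% of cells, against 10.3% and 4.46% of members. In the thinned cells the shares of members were 0% and 0.758%, too low to compare. Of the 7 cells with the most mGFP, 4 had a Cdkn2a UMI, 5 UMIs in all, and 6 UMIs were in the other 90. Without the 7 cells the Cdkn2a ratio was 0.562 (0.186–1.44), and with no mGFP-positive member in either library it was 0.369. In GFPlo 2 of the 21 Cdkn2a UMIs were in members with an mGFP UMI. The neighbouring inhibitor Cdkn2b had 6 and 9 UMIs, a ratio of 1.24 (0.364–3.91).

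Cdkn1a, which encodes the p53 target and cell cycle inhibitor p21, was higher in GFPhi. It stood at 392 CPM (398 UMIs in 51 members) against 202 CPM (383 UMIs in 91 members), a ratio of 1.94 (1.68–2.23), and 1.92 without the 7 cells of high mGFP. In the same libraries the ratio was 3.95 in all other kept cells and 1.63 in blood endothelial cells. Those other cells stood at 600 CPM in GFPhi, above its members, and at 152 CPM in GFPlo, below its members. Blood endothelial cells were at 177 and 108 CPM, below members in both. The part of other cells' RNA in the Cdkn1a ratio of members was not tested. Few members carried much of the Cdkn1a: the 5 highest held 41.7% of the UMIs in GFPhi and 35.5% in GFPlo. Among the 13 GFPhi and 248 GFPlo members with no UMI of C1qa, C1qb, C1qc, Ptprc, Msln or Upk3b, the ratio turned to 0.846. Of the 13 measured genes on the list around p16 and other cell cycle inhibitors, Cdkn1a and the stress cytokine Gdf15 (46.3 against 11.1 CPM) were higher by over 1.5-fold and Ccng1 and Lmnb1, which encodes lamin B1, lower. The list's median ratio was 0.971, and 8.83% of all 9183 genes reaching 10 CPM in either library were higher and 11.4% lower, so these counts are near the background.

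Of lymphatic genes that the rule did not use, Ccl21a and Nts were found in all 7 cells, Lyve1 in 6 and Pdpn in 1. Ccl21a stood at 31765 CPM in them and 21091 CPM in the other 90 members of GFPhi, and Lyve1 at 1691 and 1310 CPM. Pdpn was lower, at 56.4 against 237 CPM, with 3 UMIs in the 7 cells, a ratio of 0.238 (0.0487–0.704). Mki67 had a UMI in 11 of all 97 members (11.3%) and in none of the 7 cells, which are too few to read its absence. The 7 cells held 11 Lyz2 UMIs, and over all 97 members the median was 2 Lyz2 UMIs per cell, with 69.0% of the 683 in 5 members. The genes furthest above the other members were Pld5, a phospholipase D family member, with 21 UMIs in 6 of the 7 cells (394 against 32.2 CPM), the monocyte chemokine Ccl2 (51 UMIs in 5 cells, 958 against 135 CPM) and the kinase anchoring protein Akap12 (1296 against 261 CPM). Igfbp5, an IGF binding protein, was at 2029 against 571 CPM. Furthest below were Plvap, the diaphragm protein of fenestrae, and Postn, periostin, which had no UMI in the 7 cells against 346 and 238 UMIs in the other 90, and Fabp4, at 56.4 against 515 CPM. These names too were chosen from their values, and 7 cells of 1 library give no measure of how they would vary.

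As a share of all kept cells, members were fewer in GFPhi. They made up 0.958% (0.778–1.17) of GFPhi and 2.25% (1.99–2.53) of GFPlo, 2.35-fold lower (1.85–2.99). The direction depends on the base. Only 2483 of 10125 GFPhi cells lay under the C1q limit, against 11904 of 11959 in GFPlo, and over those cells members were 3.91% and 2.26%, a ratio of 1.73 (1.36–2.19). Among members and blood endothelial cells together, members were 37.9% (31.9–44.1) of GFPhi and 28.6% (25.7–31.6) of GFPlo, a ratio of 1.32 (1.04–1.68). The sort sets these shares together with the tissue, and they do not give the number of lymphatic cells in the infarct.

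Transcripts of other cell types differed between members of the libraries, and genes of those types led the comparison by size. All 97 members of GFPhi had a UMI of the 16-gene macrophage list, with 2 to 602 UMIs per cell and a median of 8. The list summed to 2042 CPM in them, 6.79% of its level in the other GFPhi cells, and to 219 CPM in GFPlo, where 106 of 269 members had a UMI and C1qa, C1qb, C1qc, Fcgr1, Cd163 and Fcrls were at 0. In blood endothelial cells the list was at 1629 and 219 CPM. The 5 members with the most held 60.3% of the macrophage UMIs of GFPhi. In the other direction the fibroblast list was at 973 CPM in members of GFPhi and 2642 CPM in GFPlo, with every gene detected in both. The mesothelial list was at 83.7 and 465 CPM, with Krt8 and Wt1 at 0 in GFPhi, and the mural list at 31.5 and 656 CPM, with Rgs5, Myh11 and Cnn1 at 0 in GFPhi. The T and NK cell, B cell, neutrophil, cardiomyocyte, erythroid and platelet lists were each at 51.2 CPM or less in both. The part of this RNA in the differences that follow was not tested.

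**Figure D3:**
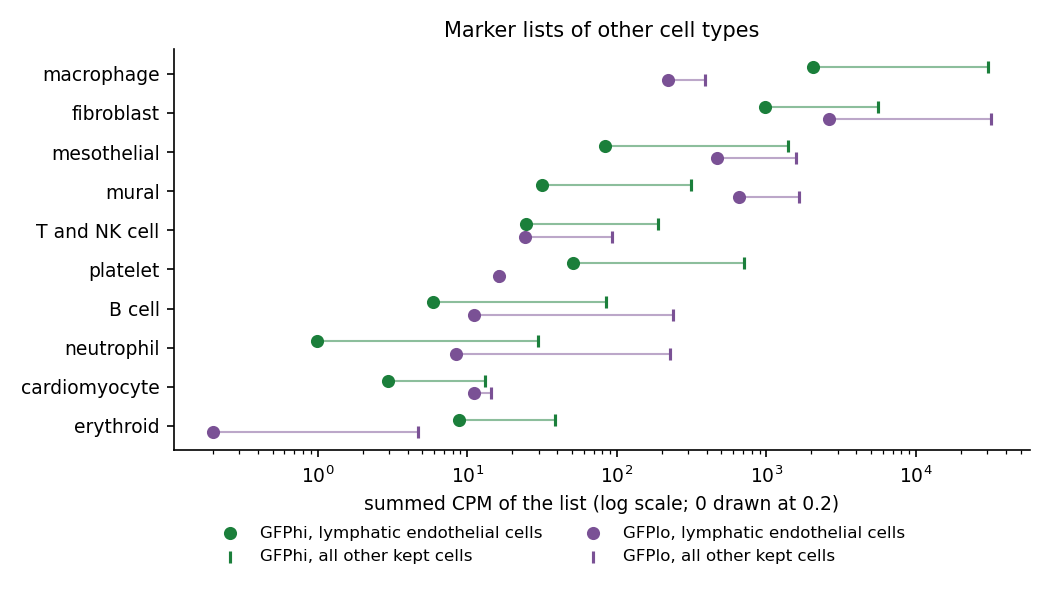
Summed CPM (log scale) of marker lists of 10 other cell types in lymphatic endothelial cells (dots) and in all other kept cells (bars) of each library. The macrophage list is higher in members of GFPhi (2042 against 219 CPM), and the fibroblast, mesothelial and mural lists are higher in members of GFPlo; the bars differ in the same directions.

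Of 3689 genes with at least 50 CPM in a library and 20 UMIs, 177 (4.8%) were over 1.5-fold higher in members of GFPhi and 199 (5.39%) over 1.5-fold lower. For 54 and 91 of them the whole interval lay past 1.5-fold. The 10 that led upward were Lyz2, C1qb, C1qc, Wfdc17, Ctss, C1qa, Mmp12, Bcl2a1b, Ccl4 and Ms4a7, all abundant in macrophages. Lyz2, lysozyme, had 683 UMIs in 83 members of GFPhi and 1 UMI in GFPlo, and Mmp12 had 61 UMIs in 4 members, 47 of them in 1 cell. The 10 that led downward were Acta2, Nkain4, Sfrp2, Slpi, Tagln, C3, Lgals7, Mgp, Aspn and Lum, known from mural, mesothelial and fibroblast cells. For Nkain4, Slpi, Lgals7 and C3, 139, 175, 104 and 282 UMIs lay in cluster 5, described below with cluster 3. It had 17 members of GFPlo and 1 of GFPhi, and all other members held 10, 14, 9 and 45. Without clusters 3 and 5 the ratios of these genes were 0.230, 0.645, 0.806 and 0.572. Those of Sfrp2 and Tagln were 0.129 and 0.0293. Acta2, smooth muscle actin, had 4 and 660 UMIs, and 5 members held 86.8% of the UMIs in GFPlo.

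Genes enriched in the members themselves were therefore read apart. In both libraries 559 of the compared genes were at least 2-fold higher in members than in all other kept cells. That choice followed a look at the values. Of these, 43 (7.69%) were over 1.5-fold higher in GFPhi and 15 (2.68%) lower. Ccl21a was highest in level, at 21651 against 10570 CPM, a ratio of 2.05 (2.01–2.09) that ranged from 1.79 to 2.05 over 10 alternatives. The median member had 221 Ccl21a UMIs per 10000 in GFPhi and 92.1 in GFPlo, with the middle range from 46.3 to 395 and from 19.6 to 217, so the cells of the libraries overlapped widely. Nts, which encodes the neuropeptide neurotensin, was at 1519 against 857 CPM (ratio 1.77, 1.65–1.90), and the 5 highest members held 39.4% of it in GFPhi. The copper carrier ceruloplasmin, Cp, was at 574 against 325 CPM (1.77, 1.57–1.98). The guidance molecules Sema3a, which acts in valve formation, and Sema3f were at 287 against 141 CPM (2.04, 1.72–2.41) and 132 against 62.3 CPM (2.12, 1.64–2.73). Dtx1 (112 against 54.9 CPM) and Il17ra, the interleukin-17 receptor (60.0 against 26.4 CPM), were 2.04-fold and 2.27-fold higher. Ednrb, an endothelin receptor, was at 92.5 against 31.7 CPM with 58.5% of its GFPhi UMIs in 5 members. Ahsg and Lsamp had all of their GFPhi UMIs in 4 members each. Over both libraries 74 Ahsg and 280 Lsamp UMIs lay in cluster 3, described below, and 8 and 4 in all other members. Endocardial genes led that cluster, and its leading genes go against the label. One alternative kept the 13 GFPhi and 248 GFPlo members with no UMI of C1qa, C1qb, C1qc, Ptprc, Msln or Upk3b. Other macrophage transcripts remained in it, with Ctss still 47.8-fold higher in GFPhi. In that set the ratios of Nts, Sema3a and Ednrb were below 1, at 0.420, 0.838 and 0.637. Those of Ccl21a, Dtx1, Sema3f and Il17ra were above 1.5 in each of the 10 alternatives.

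Lower in GFPhi among the enriched genes were Angpt2, Ptx3 and genes of the cell cycle. Angpt2 encodes angiopoietin 2, a ligand of the Tie2 receptor that acts in lymphatic growth. It had 75 UMIs in 32 of 97 members of GFPhi (73.8 CPM) and 313 UMIs in 99 of 269 of GFPlo (165 CPM), a ratio of 0.446 (0.342–0.576) and between 0.396 and 0.480 over 10 alternatives. In other kept cells Angpt2 was at 4.001 and 8.60 CPM. Ptx3 had 100 UMIs in 35 members and 372 in 84, at 98.4 against 197 CPM, a ratio of 0.501 (0.398–0.626). The imprinted gene Mest (81.7 against 166 CPM), the matrix gene Tnc, tenascin C (137 against 217 CPM), and the phosphatase Ptp4a3 (53.1 against 90.3 CPM) followed. Over 10 alternatives the ratios reached 0.707 for Ptx3, 0.847 for Mest, 0.998 for Tnc and 0.828 for Ptp4a3, all short of 1.5-fold. Those of the cell cycle genes Top2a, Ccnb2 and Cenpf reached 0.971, 0.956 and 1.92. The actin bundler Fscn1 and Plvap, at ratios of 0.708 and 0.744, were short of 1.5-fold.

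**Figure D4:**
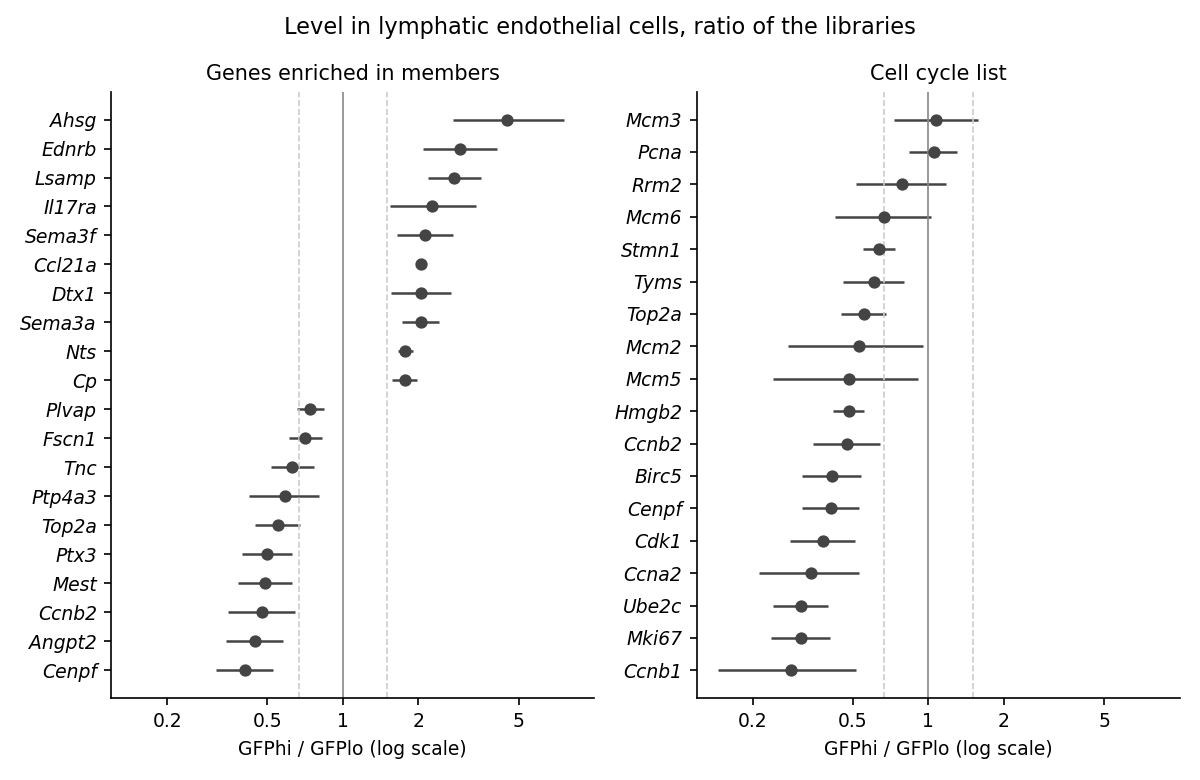
Ratio of the level in GFPhi over GFPlo members with its 95% counting interval (log scale) for the named genes enriched in members (left) and the 18 genes of the cell cycle list (right). Dashed lines mark 1.5-fold in each direction; 14 of the 18 cell cycle genes were counted as past it on the lower side.

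Cell cycle genes were lower as a group in members of GFPhi. The median ratio over the 9183 genes, of which 8.83% were higher and 11.4% lower, was 1.01. Of 18 cell cycle genes none was higher and 14 were lower, with a median ratio of 0.490. Mki67, a marker of cycling cells, stood at 65.0 against 208 CPM (66 and 394 UMIs), the topoisomerase Top2a at 121 against 219 CPM and the mitotic kinase Cdk1 at 55.1 against 145 CPM. The replication genes Pcna and Mcm3 were at ratios of 1.05 and 1.07. The 5 highest members held 77.3% of the Mki67 UMIs in GFPhi and 35.8% in GFPlo. Over blood endothelial cells of the same library, the median ratio of the 11 cell cycle genes compared was 3.15 in GFPlo and 0.770 in GFPhi. Those comparison cells differed too. In GFPhi and GFPlo they had Top2a at 130 and 64.0 CPM, Cenpf at 48.6 and 38.5 CPM and Ccnb2 at 39.4 and 33.0 CPM. Counted as cells, 18 of 97 members of GFPhi (18.6%) and 79 of 269 of GFPlo (29.4%) had a UMI of Mki67, Top2a, Birc5, Ccnb2 or Cdk1. At 1000 UMIs per cell these were 12.4% (6.56–20.6) and 17.05% (12.7–22.1), intervals that overlap. With all mGFP-positive members left out of both libraries, the median log2 ratio of the list moved from -1.03 to -0.69. Among the 13 members of GFPhi and 248 of GFPlo with no UMI of C1qa, C1qb, C1qc, Ptprc, Msln or Upk3b it was -0.52.

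Of the 16 lymphatic identity genes outside the rule, 4 were over 1.5-fold higher in GFPhi (Ccl21a, Nts, Cp and Lyve1) and none lower, with a median ratio of 1.31. Over all 9183 genes 8.83% were higher and 11.4% lower, and the list counts below stand beside these shares too. The genes of the rule were at ratios of 1.41 (Prox1), 1.35 (Mmrn1), 1.36 (Reln) and 1.17 (Flt4). Among the 13 GFPhi and 248 GFPlo members with no UMI of C1qa, C1qb, C1qc, Ptprc, Msln or Upk3b, Prox1 was at 0.860. The identity genes Nr2f2, Sema3d and Sox18, named here for the same change, were at 1.32, 1.43 and 1.14 over all members. Among those 13 and 248 they were at 0.658, 0.802 and 0.599. Lyve1 was at 1330 against 885 CPM, a ratio of 1.502 (1.40–1.61) that was 1.195 when each cell counted equally, and Pdpn at 227 against 250 CPM, a ratio of 0.908 (0.773–1.06). Of the 11 measured genes of the VEGF-C axis, the ligand Pgf was higher (125 against 70.8 CPM, 1.37–2.27 for a ratio of 1.77), Nrp1 and Flt1 were lower, and the receptors Kdr and Nrp2 were at ratios of 1.09 and 1.07. In the adrenomedullin list 2 of 4 measured genes were higher, the peptide Adm and its decoy receptor Ackr3 (128 against 83.5 CPM). Adm was at 79.7 against 39.6 CPM, with 82.7% of its GFPhi UMIs in 5 members. Its ratio was 0.664 among the same 13 and 248 members. Of the 6 measured angiopoietin and Tie genes, Angpt2 and Svep1 were lower, and the receptors Tie1 and Tek stood at 1.32 and 1.46.

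The list counts that follow stand beside 8.83% higher and 11.4% lower over all 9183 genes. Of 13 leukocyte trafficking genes measured, Ccl21a and Il7 (92.5 against 54.9 CPM, ratio 1.68, 1.26–2.25) were higher and Vcam1 and Cxcl12 lower, which is near those shares. Vcam1 had 4 and 81 UMIs, and over both libraries clusters 3 and 5, described below, held 30 and 34. Without those clusters its ratio was 0.170. Of 12 interferon response genes none was higher and 3 were lower, Ifit1, Irf7 and Ifi44, with a list median of 0.754. None of 8 MHC class I genes passed 1.5-fold. All 4 measured MHC class II genes were higher, Cd74 at 202 against 23.8 CPM, and 5 members held 70.2% of the Cd74 UMIs of GFPhi. Cd74 stood at 2444 and 188 CPM in the other kept cells. Of 12 lipid handling genes, Lpl, Pparg, Plin2 and Apoe were higher and Fabp5 and Acadl lower; Apoe stood at 485 against 199 CPM in members and at 12045 against 904 CPM in other kept cells. The list of secreted factors of senescence gave 5 genes higher and 7 lower of 19. The higher ones, Cxcl2, Il1b, Tnf, Mmp12 and Spp1, were all more abundant in the other cells of GFPhi than in its members, and the lower ones included Timp1 (48.2 against 112 CPM), Cxcl1 (15.7 against 106 CPM) and Plau, urokinase (35.4 against 67.6 CPM). In GFPlo Plau was 7.21-fold above blood endothelial cells, and in other kept cells it stood at 4.90 CPM.

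Among themselves the members fell into 6 clusters when both libraries were clustered together; their leading genes describe them and test nothing, and are named from their values. Cluster 0 (70 cells) was led by Pld5, Ptx3, the axon guidance gene Nav3, the mannose receptor Mrc1 and Tnc. Ptx3 stood at 444 CPM there and 118 CPM in the other members, and Mrc1 at 375 and 106 CPM. Cluster 1 (100 cells) had the most Ccl21a (28408 CPM) and Lyve1 (1784 CPM). Macrophage genes such as Lgals3 and Lyz2 led it, in 20% and 37% of its cells, followed by the serotonin receptor Htr2b, Igfbp5 (1568 against 292 CPM) and the growth factor pleiotrophin, Ptn. It held 6 of the 7 cells of high mGFP, the other being in cluster 0. Cluster 2 (122 cells) was led by the adhesion molecule Selp (29.3 against 2.43 CPM), thrombospondin 1, Thbs1 (428 against 85.2 CPM), Bmp4, Adm, Edn1 and Pdgfb, and had more Plvap, at 782 CPM, than clusters 0 and 1, at 137 and 211 CPM.

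**Figure D5:**
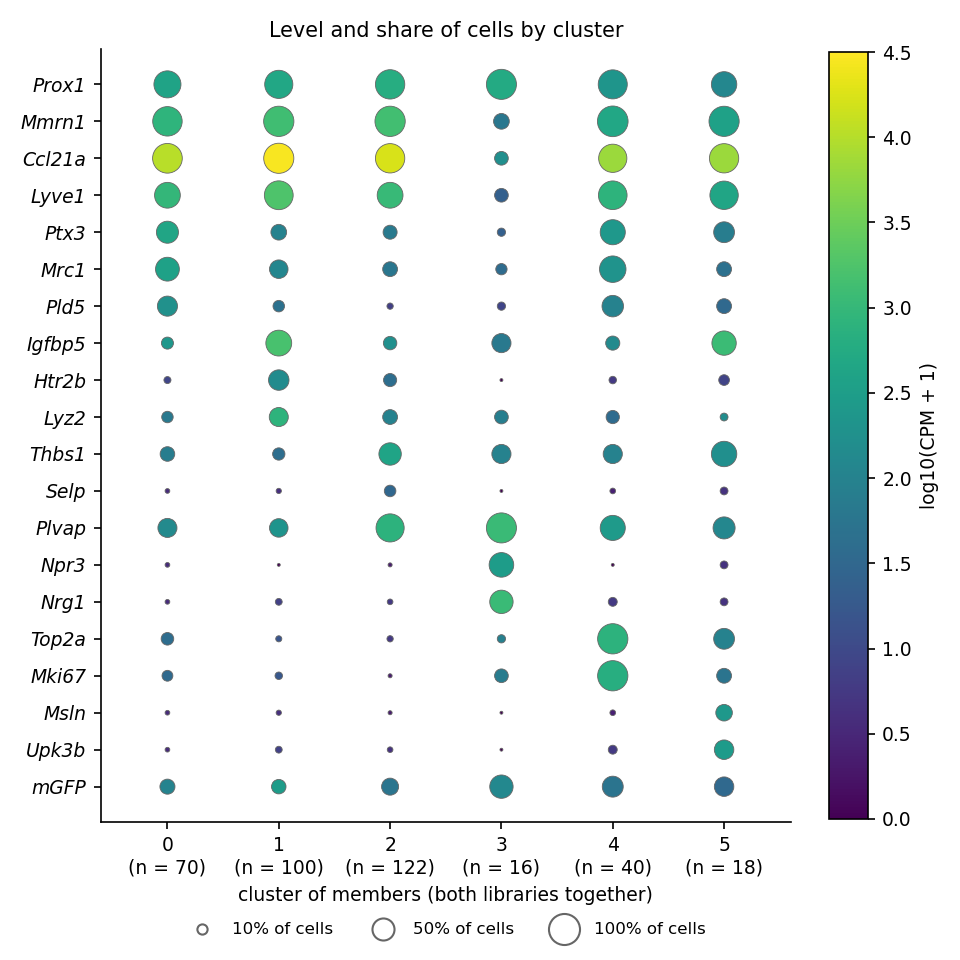
Level (colour, log10 of CPM + 1) and share of cells with a UMI (dot size) of selected genes in the 6 clusters of lymphatic endothelial cells. Clusters 0, 1 and 2 share the lymphatic genes and differ in Ptx3, Igfbp5 and Thbs1, cluster 4 carries Top2a and Mki67, cluster 3 has Npr3 with little Ccl21a, and cluster 5 carries Msln and Upk3b.

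The smaller clusters carried other programmes. Cluster 4 (40 cells, median 15309.5 UMIs) was led by histone genes, and Mki67 and Top2a were each found in 95% of its cells; its Ccl21a level was 6610 CPM, and Ptx3 and Mrc1 were in 65% and 72.5% of its cells. Cluster 3 (16 cells) had Prox1 at 550 CPM in 15 cells but Ccl21a at 169 CPM, and endocardial genes led it, with Nrg1 at 1136 CPM and Npr3 at 293 CPM. Flt4 was found in 13 of its cells, Mmrn1 in 4 and Reln in 3, and Pdgfra, a receptor of mesenchymal cells, stood at 454 CPM. Cluster 5 (18 cells) kept Ccl21a at 6611 CPM and was led by mesothelial genes, with Msln at 253 CPM and Upk3b at 278 CPM. The leading genes of clusters 3 and 5, which held 4 cells of GFPhi and 30 of GFPlo, go against the label. So do most of those of cluster 1, which held 44 cells of GFPhi and 56 of GFPlo: Lgals3, Lyz2, Wfdc17, Cd68, Ms4a7, Ctss and Ccl3, which macrophages express, although its Ccl21a and Lyve1 levels were the highest of the 6 clusters. The part of macrophage RNA in that cluster was not tested, and it was left in. Without clusters 3 and 5 the members' share was 2.18-fold lower in GFPhi, and the Ccl21a ratio was 1.88. Genes of valves and collecting vessels differed in how many members had them. Foxc2 was found in 18 members of GFPhi and 40 of GFPlo, and Cldn11 in 6 and 7. Both were highest in cluster 3, at 125 and 117 CPM. Gata2 was found in 22 and 43 members, Gja4 in 50 and 92 and Itga9 in 77 and 166. The number of clusters was 3 at a coarser and 10 at a finer resolution.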

How the data were processed

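Single cells were profiled with a droplet 3′ kit (SeekOne, per the labels' protocols; another label field names 10x Genomics). The deposited tables hold raw UMI counts per gene and cell, which the authors made against mm10, per the submitters' processing notes; which aligner, counter and cell caller they ran is not stated in the sources used here. The authors' tables list 32287 features, of which 32235 of 32285 Ensembl IDs (99.8%) matched GENCODE vM21 for positions; 0 per-sample columns were left unused.

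Cells with at least 300 genes, 500 UMIs and at most 20% mitochondrial UMIs were kept, 10125 of 10430 barcodes in GFPhi and 11959 of 12344 in GFPlo. No doublet caller was run and no doublets were removed; the collagen and C1q limits and alternatives without doubtful cells stand in for it. Counts were summed over members per library and given as CPM. With 1 library per fraction there was no test, and cells are not replicates. Intervals are exact Poisson (ratios: exact conditional binomial) and shares Clopper-Pearson, at 95%, for counting error only. A count of 0 was read as up to 3. A gene counted as higher or lower past 1.5-fold between libraries, with a prior count of 0.5 for the lists, and past 2-fold in both libraries against blood endothelial cells. Shares were also taken after thinning to 1000 UMIs. Clusters came from 1000 variable genes, 15 components, 15 neighbours and Leiden at a resolution of 0.5.

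Named genes were the 10 per direction whose nearer interval bound lay furthest from 1, with at least 50 CPM in a library and 20 UMIs (12 per direction against blood endothelial cells), passing over mitochondrial, ribosomal, haemoglobin and unnamed gene models, and the genes of the lists. Members and lists were chosen with earlier results of these data known. The ratios and their intervals were tested on simulated independent Poisson sums, which leave out the concentration of UMIs in few cells. That test checks the calculation and does not show that the intervals suit these data. Software was Python 3.11.15, numpy 2.4.6, pandas 2.3.3, scipy 1.17.1, scanpy 1.11.5, igraph 0.11.9 and matplotlib 3.10.9.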

Additional observations from a re-analysis of the deposited data

How the results depend on the processing

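No paired analysis was possible because each fraction has 1 library. Depth limits the low genes most: Cdkn2a rests on 11 and 21 UMIs. Where a value moved, the cause was not tested. With at least 3 of 4 lymphatic genes the GFPlo share of members was 1.86%; thinned to 1000 UMIs the shares were 0.554% and 1.27%, and the GFPlo share with a cycling marker 17.05%. The share ratio turned to 1.73 over cells under the C1q limit. The mGFP ratio was 3.01 without the members of most mGFP. It was 1.49 without the 7 cells of 18 or more UMIs, a choice made after seeing the data. Without members carrying C1qa, C1qb, C1qc, Ptprc, Msln or Upk3b, which left 13 and 248 members, it was 4.30. Most of the 7 cells had a C1qa or C1qb UMI and so were left out there. A cell of cluster 0 with 18 mGFP UMIs had no C1qa, C1qb, Ptprc or Msln UMI. Its part in the 4.30 was not tested. Without any mGFP-positive member 280 genes were higher, the Cdkn2a ratio was 0.369, and the ratios of Lsamp (0.0383), Nrg1 (1.49), Nrp1 (1.56), Ramp3 (0.780), Smoc1 (1.30) and Sost (1.17) changed side. Without members carrying the 6 other-type genes, which left 13 and 248, 743 genes were higher and 608 lower, 1 pathway list had a median past 1.5-fold, and Adm (0.664), Cdkn1a (0.846), Cenpf (1.92), Ednrb (0.637), Lsamp (0.140), Nts (0.420), Sele (1.99) and Sema3a (0.838) changed side. Without the 5% of members with the most UMIs Cxcl12 was at 1.08. From 10 CPM 759 genes were higher and 1108 lower, and from 3 UMIs with no CPM minimum 1856 and 2734; among member-enriched genes, a choice made after seeing the data, 43 and 15. Against blood endothelial cells the counts ranged from 188 to 335 higher and 173 to 279 lower. Clusters numbered 3 at a resolution of 0.3 and 10 at 1.0. Median-of-ratios scaling shifted log2 ratios by 0.03. Here a gene changed side when it was past 1.5-fold over all members and its ratio then crossed 1. Counting every crossing of 1, 39 of 107 named genes did so under at least 1 alternative, 14 of them past 1.5-fold over all members and 25 within it, Prox1 (0.860) among the latter.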

Other observations

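Several fixed lists stayed near the median of all genes between the fractions. Over all 9183 genes 8.83% were higher and 11.4% lower. Of 7 measured genes for capillaries and uptake, Lyve1 was over 1.5-fold higher in GFPhi, and Ptx3 and the hyaluronan scavenger receptor Stab2 were lower; Stab2 had 13 UMIs in GFPhi and 62 in GFPlo, a ratio of 0.391 (0.197–0.718). Of 15 genes for valves and collecting vessels, Sema3a and the valve transcription factor Foxc2 were higher and none lower. Of 11 secreted factors, Sema3a and Ednrb were higher and Igf2 and Edn1 lower. Of 9 basement membrane genes only Sparc was past 1.5-fold, at 1257 against 2447 CPM in members and 3484 against 14031 CPM in other kept cells; its part from other cells' RNA was not tested. The collagen IV gene Col4a1, a basement membrane component, was at 667 and 691 CPM.

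Of 11 genes of hypoxia and glycolysis, Adm was higher and the glucose transporter Slc2a1 lower. Of 13 genes that tissue dissociation induces, only Ier3 was past 1.5-fold, at 83.7 against 158 CPM, while Fos and Jun were at ratios of 1.15 and 1.36. Of 11 genes of endothelial to mesenchymal transition, Acta2 and Tagln were lower and the others were within 1.5-fold, with Vim, vimentin, at 3740 against 4239 CPM. Of 11 blood endothelial markers only Flt1 was past 1.5-fold, on the lower side.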
